A study of Homo sapiens with 6 samples.

Results

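The 36 genes described here are interferon-stimulated genes and class I antigen presentation genes, picked by name, in NCI-H1299, a human cell line from a non-small cell lung cancer. RNA was sequenced in 3 libraries of cells given 10 µM norepinephrine (NE) for 48 h in medium with low serum and in 3 libraries of cells given vehicle (Ctrl), after some hours in DMEM for both. The records name the vehicle both as DMSO and as PBS, and nothing says that the libraries of a group came from separate experiments, so the p-values measure the spread between these libraries. Of the 36, 34 of the 26025 genes of the table were found by name. Of these, 32 had a mean of at least 10 normalized counts and were tested. The expression of MX2 and XAF1 is not analysed here. Values are normalized counts, that is, reads per gene divided by 1 size factor per library, and the libraries held from 16852751 to 17979206 reads on genes. Ctrl replicate 3 stood apart, with 7305 genes at 0 reads against 3954 to 4833 in the other libraries. The cells expressed KRT8, KRT18 and VIM at 5232 or more normalized counts in every library, and 3 haematopoietic markers summed to 6.28 or less. EPCAM, CDH1, NKX2-1 and KRT19 did not exceed 9.33. KRT8 and KRT18 were lower with NE, at -1.06 and -1.62 on the log2 scale (adjusted p = 0.000604 and 8.24e-05 from limma). The summed fibroblast and endothelial markers overlapped between groups, at 24.5 to 43.5 and 30.02 to 87.2. Within the fibroblast sum COL1A1, at 27.2 or less, was lower with NE (-1.26, adjusted p = 0.0251 from limma). It was not called after the GC correction described below (adjusted p = 0.225 from limma). COL3A1 was at 0 in all Ctrl libraries and at 6.78 to 7.31 in NE libraries. The part of these markers in the results below was not tested. In such bulk samples fewer cells of a kind and less RNA per cell cannot be told apart.

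Interferons bind receptors that signal through the kinases JAK1 and TYK2 to transcription factors of the STAT family. STAT2 and IRF9 are part of a complex that binds the interferon-stimulated response element (ISRE) in the promoters of antiviral genes. The products sense or degrade viral RNA, block viral replication or tag proteins for removal. Class I molecules, made of an HLA heavy chain and beta-2-microglobulin, present peptides that TAP carries into the endoplasmic reticulum. Many of their genes are raised by interferon as well.

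The ISRE was looked for as GAAA followed, after any 2 bases, by GAAA, on both strands of RefSeq promoter windows of GRCh38.p14, from 250 bases before to 50 bases after each start site. For 30 of the 36 genes a window was at hand, and 20 of these 30 held the core in at least 1 window, against 3.57% of 35116 windows of all genes and 4.38% of genes with a window. The 6 without a window are IFIT2, MX2, OAS2, OASL, IRF7 and DHX58. All 6 genes that rose with NE and have a window held the core, and so did 5 of 9 that fell, 7 of 12 not called and 2 of 3 not tested. These 11 genes are shown because the same letters stand in the windows of genes that moved in opposite directions. The directions are those before the GC correction described below, after which only SAMD9, OAS3 and TAP1 of the 11 kept their calls. Each line gives 30 bases 5′ to 3′ on the strand of the gene, with the core, or overlapping cores, in capitals:

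IFIT3: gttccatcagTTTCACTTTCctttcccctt
IFIT5: ttacgtttagTTTCGATTTCttaagtttca
IFIH1: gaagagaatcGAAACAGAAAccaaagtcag
PARP9: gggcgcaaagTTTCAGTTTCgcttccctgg
PARP14: tccaggaaacGAAAGCGAAAgagtcaaagt
SAMD9: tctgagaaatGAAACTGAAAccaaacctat
ISG15: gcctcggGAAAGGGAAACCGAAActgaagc
OAS3: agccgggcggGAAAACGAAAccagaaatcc
IFI6: gcagagtgcaGAAATAGAAActccgacagg
TRIM21: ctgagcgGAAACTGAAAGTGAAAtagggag
TAP1: cggccgcTTTCGATTTCGCTTTCccctaaa

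The stretches of genes that rose are chr10:89332468-89332497 on the plus strand for IFIT3, chr10:89414539-89414568 on the plus strand for IFIT5, chr2:162318686-162318715 on the minus strand for IFIH1, chr3:122564322-122564351 on the minus strand for PARP9, chr3:122680800-122680829 on the plus strand for PARP14 and chr7:93118096-93118125 on the minus strand for SAMD9. Those of genes that fell are chr1:1013377-1013406 on the plus strand for ISG15, chr12:112938452-112938481 on the plus strand for OAS3, chr1:27672266-27672295 on the minus strand for IFI6, chr11:4393663-4393692 on the minus strand for TRIM21 and chr6:32853816-32853845 on the minus strand for TAP1. The cores of ISG15 and TAP1 lie at -113 to -98 and -134 to -119 from the start site, and that of TRIM21 lies after it, at 18 to 33. The core of PARP9, at 122564332 to 122564341, is also in the window of DTX3L, which is read the other way from an overlapping start. The GAS core TTCCNGGAA, a site of STAT factors, was in the windows of 3 of the 30 genes (1.15% of all windows, 1.44% of genes), and the CRE TGACGTCA, the site of CREB, in 0 of 30 (1.85% of all windows, 2.25% of genes). The shorter TGACG, a part of the CRE, was in the windows of 9 of the 30 (24.6% of all windows, 28.4% of genes), among them 1 of 6 genes that rose, 4 of 9 that fell and 3 of 12 not called. Matches of letters do not show binding.

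NE did not move these genes in 1 direction. By limma on log2(normalized count + 1), 7 of the 32 tested genes were higher and 11 lower with NE at an adjusted p under 0.05, and 14 were not called. Among all 15013 genes tested, 24.6% were higher and 25.5% lower by the same rule, against 21.9% and 34.4% of the 32. The median log2 fold change was -0.02 over the 32 genes and 0.01 over all genes. Changes of at least 2-fold were called for SAMD9 upward and for IRF1, IFI35, DHX58 and HLA-B downward, against 7.47% and 6.55% of all genes. All NE libraries lay above all Ctrl libraries for 8 of the genes and below for 11, against 29.7% and 28.9% of all genes. With Ctrl replicate 3 left out, 10 were higher and 11 lower, against 31.9% and 32.5% of all genes. The 3 added genes were IFI44, DDX58 and SAMHD1.

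**Figure D1:**
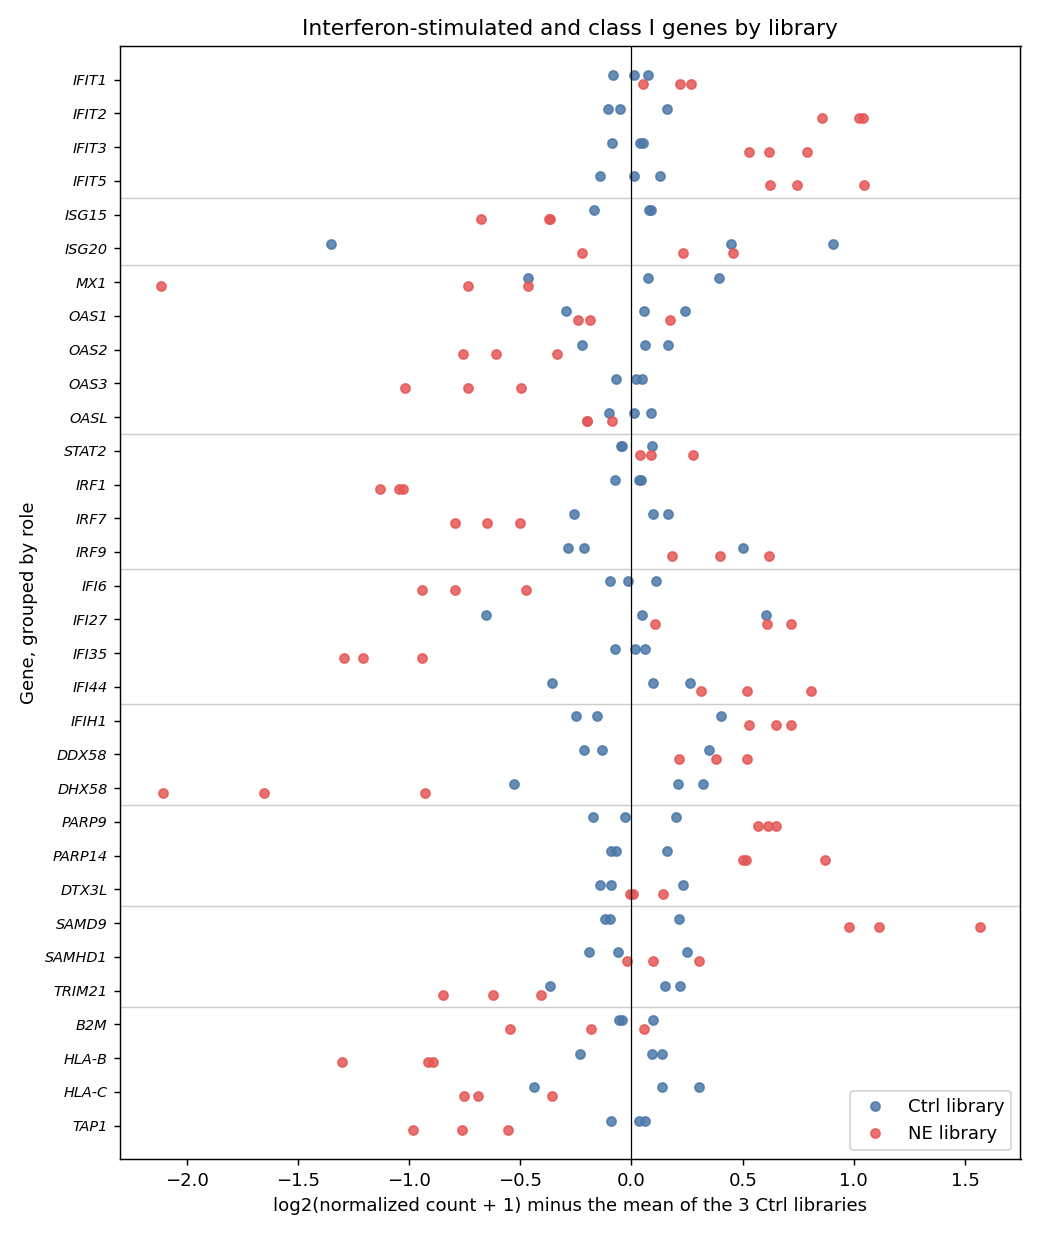
Log2(normalized count + 1) of the 32 tested genes in each library, minus the mean of the 3 Ctrl libraries (x axis), 1 row per gene with lines between roles; blue points are Ctrl and red points NE libraries. By the mean of the NE libraries, which is not drawn, SAMD9 and IFIT2 lie farthest to the right and DHX58 farthest to the left among the genes whose libraries do not overlap.

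The IFIT genes, which bind viral RNA and block its translation, lie in a cluster on chromosome 10 of hg38 from 89283694 to 89421605. Of the 4, 3 rose, against 24.6% of all genes higher by the same rule. After the GC correction described below 1 was called higher, against 14.5% of all genes. IFIT2 had 855.6, 712.4 and 738.9 normalized counts in Ctrl and 1391, 1561 and 1577 in NE libraries. The groups did not overlap, with NE above. The log2 fold change was 0.97 (standard error 0.117, adjusted p = 0.000296). IFIT3 had 759.2, 764.3 and 693.8 in Ctrl and 1278, 1135 and 1065 in NE libraries. Its groups did not overlap either, and it rose by 0.65 on the log2 scale (adjusted p = 0.00177 from limma). IFIT5, the least expressed of the family, had 203.2, 226.1 and 245.0 in Ctrl and 464.4, 345.8 and 376.5 in NE libraries. All NE libraries were higher, at a log2 change of 0.81 (adjusted p = 0.00262 from limma). IFIT1 had 956.1, 1065 and 1020 in Ctrl and 1051, 1179 and 1221 in NE libraries, and the groups overlapped (log2 fold change 0.18, adjusted p = 0.199).

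Since IFIT1 and IFIT2 are of like GC content, at 42.2% and 42.7% of their exons, their ratio was taken within each library. The log2 ratio of IFIT2 to IFIT1 was -0.16, -0.58 and -0.46 in Ctrl and 0.40, 0.41 and 0.37 in NE libraries. IFIT2 was thus below IFIT1 in each Ctrl library and above it in each NE library. The difference of 0.79 had p = 0.1 by an exact two-sided permutation test, the smallest that 3 against 3 libraries allow. It was 1 of 4 ratios chosen after the values were seen, and each gave an exact permutation p = 0.1, raw and adjusted over the 4.

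ISG15, a ubiquitin-like modifier that is among the most strongly induced genes of the response, was at 288.5 FPKM in Ctrl over a merged exon length of 867 bases. It had 4778, 4754 and 3998 normalized counts in Ctrl and 2812, 3479 and 3482 in NE libraries. All NE libraries were lower, and ISG15 fell by 0.47 on the log2 scale (standard error 0.124, adjusted p = 0.0113 from limma). After quantile normalization the call was lost (-0.28, adjusted p = 0.0965). ISG20, an RNA exonuclease, had from 40.2 to 195.8 in Ctrl, the lowest in Ctrl replicate 3, and from 88.9 to 143.3 in NE libraries (log2 fold change 0.16, adjusted p = 0.814), and -0.52 without Ctrl replicate 3 (adjusted p = 0.0539).

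Of the OAS genes, whose products activate RNase L, OAS3 fell. It had 1393, 1312 and 1423 normalized counts in Ctrl and 975.3, 825.2 and 677.1 in NE libraries. The groups were apart, at a log2 change of -0.75 (standard error 0.141, adjusted p = 0.00232). Its neighbours OAS1 and OAS2 on chromosome 12 were far lower, at 33.5 or less and 63.3 or less, and were not called (log2 fold changes -0.09 and -0.57, adjusted p = 0.838 and 0.0868). OASL, a relative without the enzyme activity, was at -0.16 (adjusted p = 0.23). MX1, a GTPase that traps viral nucleocapsids and a common marker of the response, had 27.2, 14.5 and 21.6 in Ctrl and 3.95, 14.5 and 11.9 in NE libraries. These groups overlapped and the log2 fold change was -1.11 (adjusted p = 0.117).

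The transcription factors of the response split. IRF1, which activates many interferon-stimulated and class I genes, had 384.3, 413.8 and 416.5 normalized counts in Ctrl and 197.6, 184.0 and 195.5 in NE libraries. The libraries within each group lay close together and the groups far apart. IRF1 changed by -1.07 on the log2 scale (standard error 0.127, adjusted p = 0.000288), and of -1.11 to -1.04 with each library left out. IRF7, which drives type I interferon genes, had 317.3, 332.9 and 247.9 in Ctrl and 188.7, 209.2 and 170.9 in NE libraries. It was lower in all NE libraries and fell by 0.65 on the log2 scale (adjusted p = 0.00958 from limma). STAT2 and IRF9, both parts of the ISRE-binding complex, were not called (0.13 and 0.40, adjusted p = 0.339 and 0.518), and IRF9 did not exceed 13.7 normalized counts.

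Among the IFI genes, IFI35 and IFI6 fell. IFI35, a partner of NMI, had 583.3, 602.5 and 548.8 normalized counts in Ctrl and 235.2, 249.9 and 300.6 in NE libraries. There was no overlap, and the log2 fold change was -1.15 (standard error 0.137, adjusted p = 0.000288). IFI6, a membrane protein that limits flavivirus replication, had 428.3, 404.4 and 467.4 in Ctrl and 249.0, 310.9 and 224.8 in NE libraries. Here too all NE libraries were lower, at a log2 change of -0.74 (adjusted p = 0.00385). IFI44 was higher in each NE library than in any Ctrl library, at 173.9 to 245.8 against 108.9 to 168.0, without passing the threshold (0.55, adjusted p = 0.0536); without Ctrl replicates 2 and 3 in turn its adjusted p was 0.0426 and 0.0212. IFI27 was at 28.7 or less and was not called (0.48, adjusted p = 0.37). IFI44L had 3.14 and 1.04 in Ctrl replicates 1 and 2 and was listed at 0 in the other 4 libraries.

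Of the 3 RIG-I-like sensors of viral RNA, IFIH1 rose, DHX58 fell and DDX58 was not called. IFIH1, which encodes the sensor MDA5, had 867.1, 812.0 and 1273 normalized counts in Ctrl and 1586, 1513 and 1393 in NE libraries. Ctrl replicate 3 was the highest Ctrl library but stayed below all NE libraries. IFIH1 rose by 0.63 on the log2 scale (standard error 0.168, adjusted p = 0.012 from limma), and without NE replicate 1 the adjusted p was 0.0541. DHX58, which encodes LGP2, a regulator of the other two, had 25.1, 42.5 and 46.1 in Ctrl and 18.8, 7.75 and 11.0 in NE libraries. All NE libraries were lower, at counts where few reads decide the value, and the log2 fold change was -1.56 (standard error 0.429, adjusted p = 0.014). Without Ctrl replicate 2 or NE replicate 2 the adjusted p was 0.0535 and 0.0509. DDX58, which encodes RIG-I, was at 0.37 (adjusted p = 0.0882), with Ctrl replicate 3 at 750.6 inside the NE range of 684.4 to 846.8, and at 0.55 without that library (adjusted p = 0.000714).

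PARP9 and DTX3L form a ubiquitin ligase complex and are read from the same start region on chromosome 3, in opposite directions. PARP9 had 337.2, 288.3 and 260.7 normalized counts in Ctrl and 436.8, 462.0 and 450.5 in NE libraries. All NE libraries were higher, and PARP9 rose by 0.61 on the log2 scale (standard error 0.137, adjusted p = 0.00528 from limma). DTX3L had 991.7, 1025 and 1284 in Ctrl and 1207, 1099 and 1086 in NE libraries, and its groups overlapped (0.05, adjusted p = 0.775). The log2 ratio of PARP9 to DTX3L was -1.55, -1.83 and -2.30 in Ctrl and -1.46, -1.25 and -1.27 in NE libraries, the lowest in Ctrl replicate 3 and without overlap (exact two-sided permutation test, p = 0.1, the smallest possible). This ratio too was chosen after the values were seen, and its groups overlapped after the GC correction described below. The genes overlap at their starts, and without a stated strand setting some reads may not be told apart. PARP14, a mono-ADP-ribosyltransferase nearby, had 1079, 1098 and 1287 in Ctrl and 2104, 1643 and 1628 in NE libraries. It was higher in each NE library, by 0.63 on the log2 scale (adjusted p = 0.00427 from limma).

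Of the other effectors, SAMD9, which restricts poxviruses, showed the largest rise of the 32 genes. It had 310.0, 304.9 and 384.1 normalized counts in Ctrl and 982.2, 717.7 and 653.4 in NE libraries. The groups did not overlap and the log2 fold change was 1.22 (standard error 0.175, adjusted p = 0.000637). TRIM21, a cytosolic antibody receptor, had 320.4, 336.0 and 223.4 in Ctrl and 160.1, 186.9 and 217.5 in NE libraries. Ctrl replicate 3 lay just above NE replicate 3. TRIM21 changed by -0.63 on the log2 scale (adjusted p = 0.0248), and its call was lost without Ctrl replicate 1, Ctrl replicate 2, NE replicate 1 or NE replicate 2 (adjusted p = 0.0804, 0.093, 0.0982 and 0.0696). SAMHD1, a dNTP hydrolase, was at 0.13 (adjusted p = 0.476) and passed without Ctrl replicate 3 (0.25, adjusted p = 0.0468). BST2, which tethers budding virions, was under the minimum mean, with 7.33, 7.26 and 10.8 in Ctrl and 1.98, 2.91 and 0.914 in NE libraries, and was not tested.

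In the class I group 3 of the 4 genes fell, against 25.5% of all genes lower by the same rule. After the GC correction described below 3 were lower, against 17.7% of all genes, with B2M in place of HLA-C. HLA-B, a heavy chain on chromosome 6, had 2501, 2427 and 1934 normalized counts in Ctrl and 921.9, 1204 and 1222 in NE libraries. Every NE library was well below every Ctrl library. HLA-B changed by -1.04 on the log2 scale (standard error 0.149, adjusted p = 0.000639), which was short of 2-fold without Ctrl replicate 1, Ctrl replicate 2 or NE replicate 1 (-0.97, -0.99 and -0.91). TAP1, a subunit of the peptide transporter, had 1907, 1713 and 1870 in Ctrl and 1243, 1079 and 925.7 in NE libraries. It was lower in each NE library, at a log2 change of -0.77 (adjusted p = 0.00129). HLA-C had 1145, 1019 and 684.0 in Ctrl and 575.1, 550.1 and 723.7 in NE libraries. Its groups overlapped, since Ctrl replicate 3 was below NE replicate 3. HLA-C was at -0.60 (adjusted p = 0.0301), and its call was lost without Ctrl replicate 1, Ctrl replicate 2, NE replicate 1 or NE replicate 2 (adjusted p = 0.102, 0.0887, 0.106 and 0.109). HLA genes are alike and vary between genomes, so that reads can be shared or lost and their levels are uncertain.

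B2M, the light chain of all class I molecules, had 7828, 8625 and 7765 normalized counts in Ctrl and 5528, 7096 and 8395 in NE libraries. The NE libraries spread widely and overlapped the Ctrl libraries. The log2 fold change was -0.22 (standard error 0.147, adjusted p = 0.232), and 0.07 after quantile normalization. The log2 ratio of HLA-B to B2M was -1.65, -1.83 and -2.00 in Ctrl and -2.58, -2.56 and -2.78 in NE libraries. As deposited, HLA-B was lower relative to B2M in each NE library (exact two-sided permutation test, p = 0.1, the smallest possible). This was 1 of the 4 ratios chosen after the values were seen. HLA-B has 54.2% and B2M 41.4% GC. After the GC correction described below the difference went from -0.81 to 0.05 and the groups overlapped.

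**Figure D2:**
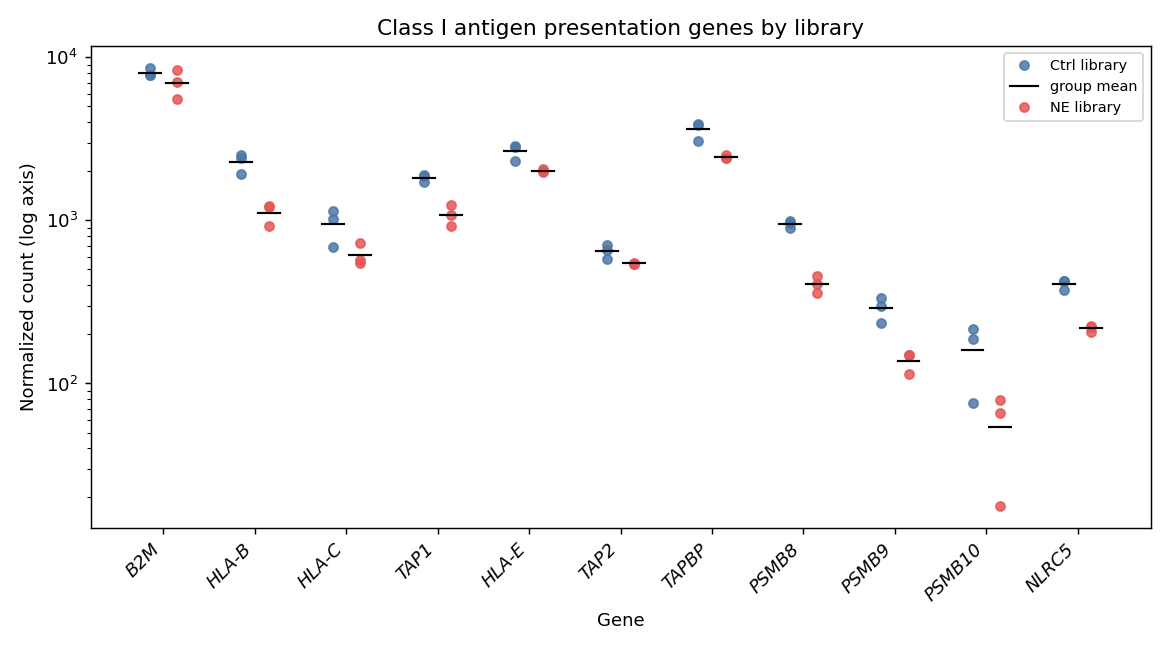
Normalized counts (log axis) of the 4 class I genes described above and of 7 further class I antigen presentation genes, with 3 Ctrl (blue) and 3 NE (red) libraries per gene and bars at the group means. The NE libraries lie below the Ctrl libraries for HLA-B, TAP1, PSMB8, PSMB9 and NLRC5, while those of B2M overlap.

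A list of 110 other genes of these pathways gave 101 in the table and 90 tested, of which 17 were higher and 35 lower (limma, adjusted p under 0.05). These are 18.9% and 38.9%, against 24.6% and 25.5% of all genes. The median log2 fold change over the 90 was -0.20, against 0.01 over all genes. In the class I part of the list 1 gene was higher and 9 lower of 18 tested (5.56% and 50%, against 24.6% and 25.5% of all genes), with a median of -0.48. The immunoproteasome subunits PSMB8, PSMB9 and PSMB10, which cut peptides for class I, fell by 1.22, 1.06 and 1.65 on the log2 scale (adjusted p = 0.000169, 0.00162 and 0.0348 from limma). The groups of PSMB10 overlapped, and it lost its call without Ctrl replicate 1, Ctrl replicate 2 or NE replicate 1 (adjusted p = 0.0866, 0.0978 and 0.112). The gene model of PSMB9 overlaps those of TAP1 and PSMB8 on the other strand, so that their counts may share reads. NLRC5, the transactivator of class I genes, was at -0.90 (adjusted p = 0.000677), and RFXANK, a subunit of the factor that recruits it, at -0.97 (adjusted p = 0.00154). TAPBP, which loads peptides, was at -0.56 (adjusted p = 0.00375), whereas TAP2 was not called (-0.25, adjusted p = 0.104; -0.33 with adjusted p = 0.0101 without Ctrl replicate 3). After the GC correction PSMB8, PSMB9, NLRC5 and RFXANK were still called, at -1.03, -1.09, -0.43 and -0.35, and TAP2 was added, at -0.44 (adjusted p = 0.0144). PSMB10 and TAPBP were then not called, at -1.01 and -0.16 (adjusted p = 0.143 and 0.146).

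Upstream of these genes the interferons themselves were hardly seen. IFNB1, IFNA1 and IFNL1 did not exceed 3.11 normalized counts in any library, and IFNE had from 18.7 to 52.3 with overlapping groups (adjusted p = 0.417). Of the 16 tested genes for interferons, receptors and JAK-STAT signaling, 6 were higher and 3 lower (37.5% and 18.8%, against 24.6% and 25.5% of all genes). JAK1 rose by 0.46 and the STAT inhibitor PIAS1 by 1.07 on the log2 scale, while TYK2 fell by 0.70 (adjusted p = 0.00492, 0.000761 and 0.00119 from limma). After the GC correction JAK1 and PIAS1 kept their calls, at 0.48 and 0.71, and TYK2 lost its call, at -0.10 (adjusted p = 0.326). The groups of IFNAR1, a chain of the type I receptor, overlapped, and it was at 0.44 (adjusted p = 0.0472) and kept this call only without Ctrl replicate 3 among the 6 fits that left out a library; the adjusted p in the other 5 ran up to 0.167. IFNAR2, the other chain, did not exceed 48.4 (adjusted p = 0.405). USP18, which removes ISG15 from proteins, was at -0.50 (adjusted p = 0.0276), with adjusted p of 0.0672 to 0.107 when Ctrl replicate 1, Ctrl replicate 2, NE replicate 1 or NE replicate 3 was left out. After the GC correction USP18 was still called by limma, at -0.61 (adjusted p = 0.0140), and IFNAR1 was not, at -0.0077 (adjusted p = 0.964).

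Among 14 tested sensors and adaptors 3 were higher and 6 lower (21.4% and 42.9%, against 24.6% and 25.5% of all genes). The sensor TLR3 and the kinase TBK1 rose by 1.26 and 0.98 on the log2 scale (adjusted p = 0.00618 and 0.000701 from limma). IRF3, the substrate of TBK1, and the related kinase IKBKE fell by 1.05 and 0.999 (adjusted p = 0.00141 and 0.00223 from limma). After the GC correction TBK1 and IRF3 were still called, at 0.35 and -0.46, whereas TLR3 and IKBKE were not, at 0.69 and -0.45 (adjusted p = 0.0782 and 0.0856). Of 42 other interferon-stimulated genes tested, 7 were higher and 17 lower (16.7% and 40.5%, against 24.6% and 25.5% of all genes). PML, the scaffold of nuclear bodies, had 4352, 4061 and 4379 normalized counts in Ctrl and 1832, 1604 and 1590 in NE libraries (log2 fold change -1.35, adjusted p = 4.53e-05). PARP10 and the membrane protein IFITM3, which blocks viral entry, were at -1.10 and -1.003 (adjusted p = 0.0017 and 0.00544). After the GC correction PML and IFITM3 were still called, at -0.93 and -0.47, and PARP10 was not, at -0.44 (adjusted p = 0.0861).

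The direction of change followed the GC content of the exons. The 7 genes that rose had between 36.03% and 43.4% GC, and the 11 that fell between 48.6% and 67.2%, so that these ranges did not overlap. The 14 genes not called had from 38.2% to 53.8%. Over the 32 genes the Spearman correlation of the log2 fold change with GC content was -0.681 (Pearson -0.678), and over 14955 genes it was -0.644. These are descriptions across genes that share the same 6 libraries.

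**Figure D3:**
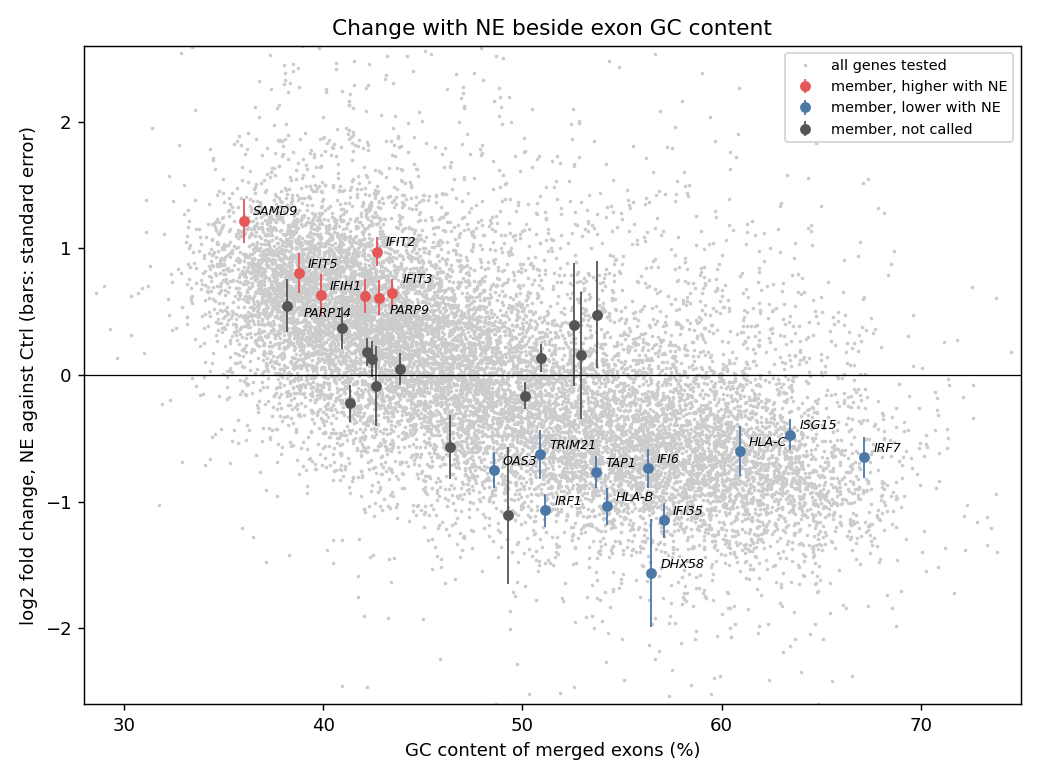
Log2 fold change of NE against Ctrl (y axis, bars are standard errors) beside the GC content of the merged exons in percent (x axis), for all genes tested (grey) and the 32 genes described here (red higher, blue lower, dark grey not called). The genes that rose lie at 43.4% or less and those that fell at 48.6% or more, and 152 of the genes tested have no GC value or lie outside the axes and are not drawn.

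Once the dependence on GC content had been taken out of every library, 3 of the 32 genes were higher and 6 lower by limma, against 14.5% and 17.7% of all genes. IFIT2 and SAMD9 stayed higher, at 0.60 and 0.52 on the log2 scale (adjusted p = 0.00581 and 0.0154), and STAT2 was added (0.35, adjusted p = 0.0163). In this fit IRF1, OAS3, HLA-B, IFI35 and TAP1 stayed lower, at -0.83, -0.69, -0.64, -0.63 and -0.39 (adjusted p = 0.00108, 0.00415, 0.00221, 0.00446 and 0.0472). The calls of IFIT3, IFIT5, IFIH1, PARP9 and PARP14 were lost, at 0.32, 0.20, 0.08, 0.24 and 0.21 (adjusted p = 0.0541, 0.283, 0.572, 0.251 and 0.145). Those of IFI6, DHX58 and TRIM21 were lost as well, at -0.25, -1.07 and -0.41 (adjusted p = 0.271, 0.101 and 0.0887). B2M, which is poor in GC at 41.4%, became lower (-0.69, adjusted p = 0.0114). ISG15, IRF7 and HLA-C, at 63.4%, 67.2% and 60.9% GC, were then at 0.18, 0.03 and 0.01 (adjusted p = 0.169, 0.861 and 0.942). At least 2-fold changes were called for 0 genes upward and 0 downward, against 3.67% and 2.31% of all genes, with 0 and 1 at an unadjusted p under 0.05. With Ctrl replicate 3 also left out, 5 were higher and 7 lower, against 19.5% and 22.8% of all genes. ISG15 was then called higher (0.23, adjusted p = 0.0493) and TAP1 lost its call (-0.31, adjusted p = 0.0623). IFIT1 was called lower (-0.29, adjusted p = 0.0352 from limma). IFI27, at 28.7 or fewer normalized counts, was called higher by more than 2-fold (1.22, adjusted p = 0.0365 from limma). The difference in the ratio of HLA-B to B2M went from -0.81 to 0.05, and that of IFIT2 to IFIT1 from 0.79 to 0.83 with the groups still apart. The groups came to overlap for HLA-B to B2M, for PARP9 to DTX3L (0.56 to 0.49) and for the remaining ratio, IFIH1 to DHX58 (2.20 to 1.16). Whether the correction also removes change made by NE was not tested.

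**Figure D4:**
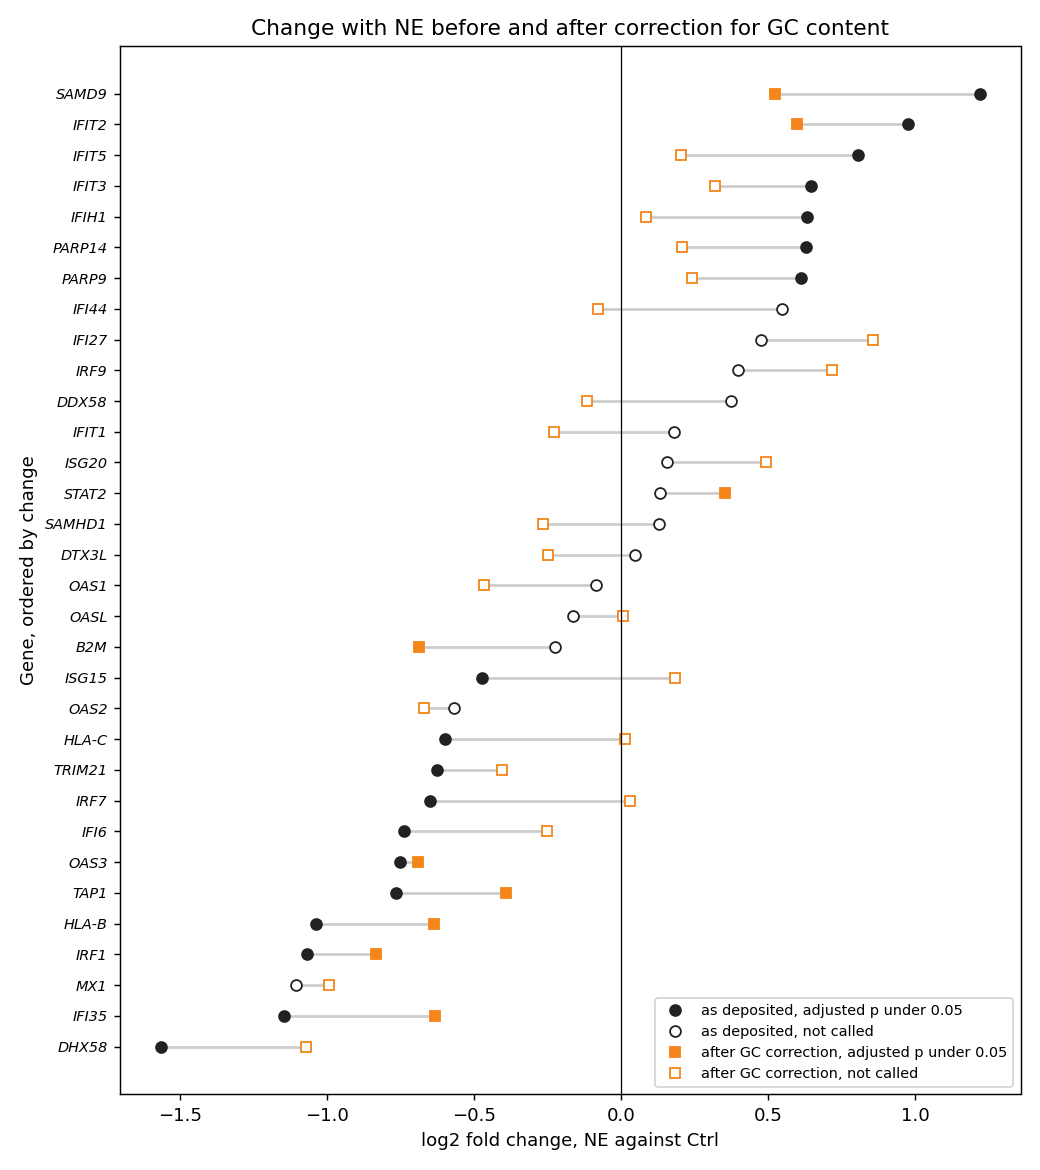
Log2 fold change of NE against Ctrl (x axis) for the 32 genes, ordered by change, before (black circles) and after (orange squares) removal of the GC trend; filled symbols have an adjusted p under 0.05. IFIT2 and SAMD9 to the right of 0 and IRF1, OAS3, HLA-B, IFI35 and TAP1 to the left are filled in both, while ISG15, IRF7 and HLA-C move past 0.

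Per length, the levels of the 34 genes in Ctrl ran from 288.5 FPKM for ISG15 and 143.6 for B2M, through 27.4 for HLA-B, 25.7 for IFI6, 21.5 for TAP1 and 21.0 for HLA-C, to 0.0652 for MX1 and 0.00659 for IFI44L. In NE libraries ISG15 was at 230.2, B2M at 137.9, IFIT2 at 21.4, up from 9.87, and HLA-B at 14.8. FPKM here is relative to all reads on genes. These lengths join the exons of all transcripts and are too long for genes such as MX1, whose true level per length is then understated.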

How the data were processed

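RNA of NCI-H1299 cells was sequenced from 3 Ctrl and 3 NE libraries, grouped by the sample titles. Per the study's methods and processing notes, HISAT2 2.0.5 mapped the reads onto hg38 and featureCounts 1.5.0-p3 counted them per gene. The signal deposited by the authors as FPKM holds reads per gene scaled by a size factor of each library. Dividing by the value of 1 read gave whole numbers, within 0.01 reads, for 100% of the values in each library. Counting by strand is not given in the sources used here.

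Members and lists were chosen with earlier results of these data known. limma 3.58.1 (lmFit, eBayes with trend) was run in R 4.3.3 on log2(value + 1). It took the 15013 genes whose mean reached 10, with Benjamini-Hochberg adjustment over all of them. For genes of low counts the added 1 makes the fold change too small. edgeR 4.0.16 and DESeq2 1.42.0 were run on the recovered reads, where edgeR called 3577 genes higher and 3971 lower, and the GC correction removed a spline with 5 degrees of freedom per library. Other pseudocounts, filters and scalings, a replicate block and each library left out were also tried. FPKM was recomputed from recovered reads and merged exon lengths of GENCODE v44. All members tested are named, with per-library values for those with an adjusted p under 0.05 and for the class I members. Of the pathway genes, 12 were to be named whatever they showed, of which 2 are not reported here, with the 10 largest changes among the others that passed. Of the pathway genes, 9 are not analysed here. On simulated counts 200 of 15013 genes had a log2 change of 1.5, all with a mean of at least 50. At an adjusted p under 0.05 and at least 2-fold, limma recovered 96.5% of the 200, with 2 false calls. This simulation held no GC trend and far fewer changed genes than were called in the data. It therefore does not show how limma performs on data such as these.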

Additional observations from a re-analysis of the deposited data

How the results depend on the processing

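Pseudocounts of 0.1 and 5 and TMM scaling kept all counts within 1.5 times, and edgeR and DESeq2 gave 7 and 8 members higher and 11 lower. Over all genes edgeR called 3577 higher and 3971 lower, and DESeq2 3725 higher and 3984 lower. The GC correction gave 3 members higher and 6 lower, with 0 and 0 by at least 2-fold (0 and 1 at an unadjusted p under 0.05 by limma). Of 90 pathway genes it gave 7 higher and 26 lower, and of the 18 in the class I part 0 and 7. Over all genes it gave 2174 higher and 2641 lower (14.5% and 17.7%). It reversed IFIT1 (-0.23), ISG15 (0.18), OASL (0.00576), IRF7 (0.0312), IFI44 (-0.0786), DDX58 (-0.12), DTX3L (-0.25), SAMHD1 (-0.27), HLA-C (0.0146) and IFNAR1 (-0.00771). The same correction without Ctrl replicate 3, chosen after seeing the data, gave 5 higher and 7 lower, 0 lower by at least 2-fold and 10 pathway genes higher, and reversed IFIT1 (-0.29), ISG15 (0.23), ISG20 (-0.13), OASL (0.0829), IRF7 (0.0593), IFI44 (-0.16), DDX58 (-0.0362), DTX3L (-0.17) and SAMHD1 (-0.21). Quantile normalization gave 2 members higher by at least 2-fold and reversed B2M (0.0660). ISG20 was reversed by edgeR (-0.10) and DESeq2 (-0.0841). The median log2 fold change of members was -0.12 with no filter, where more genes of low counts enter, 0.0878 with a mean of at least 50, 0.0615 after quantile normalization, -0.10 by edgeR, -0.10 after the GC correction and -0.12 after that correction without Ctrl replicate 3. For the other changes the cause was not tested.

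With each library left out, 6 to 10 members were higher and 8 to 11 lower, 1 to 2 higher and 2 to 4 lower by at least 2-fold. Over all genes the same fits called 2715 to 4802 higher and 2961 to 4890 lower. By at least 2-fold they called 815 to 1628 higher and 777 to 1507 lower. IFIT2 was the second member higher by at least 2-fold, without Ctrl replicate 1 (1.05) or NE replicate 1 (1.03). The 2 lower members were left without Ctrl replicate 2, where DHX58 and HLA-B dropped out. IRF9 was under the minimum without Ctrl replicate 1 or NE replicate 3. ISG20 ran from -0.52 to 0.61, OAS1 from -0.23 to 0.0342 and DTX3L from -0.0219 to 0.16. Over all genes 1628 were higher and 1507 lower by at least 2-fold without Ctrl replicate 3, against 1121 and 983. Libraries of the same replicate number deviated with correlations of -0.163, 0.0799 and -0.151. These values show no pairing by number, but they cannot exclude one. A replicate block gave 8 members higher and 9 lower, against 3150 and 3358 of all 15013 genes. It added IFI44 and lost TRIM21 and HLA-C. MX1, DHX58, IRF9 and IFI27 rest on few reads, which limits their precision.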
